A study of Homo sapiens with 3 samples.

Results

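The axon guidance genes were taken as every array probe whose annotated gene symbol begins with EPHA, EPHB, EFNA, EFNB, SEMA, PLXN, ROBO, NTN or UNC5, or is SLIT1, SLIT2, SLIT3, NRP1, NRP2 or DCC. This gave 86 probes for 70 genes, of 18468 named probes for 16225 genes on the array. EPHB2, SEMA5B and ROBO3 have no named probe and are not analysed here. The 70 genes comprise 36 ligands and 32 receptors, and 2 genes that share the letters UNC5 without belonging to either class: UNC50, a membrane protein of the Golgi, and UNC5CL, a death-domain protein related to UNC5C. Total RNA came from human embryonic stem (ES) cells of 3 established lines named H9, BG03 and ES01, numbered as replicates 1, 2 and 3. All were grown on irradiated mouse embryonic fibroblast feeders in a serum-replacement medium with FGF2, and none carried a named treatment or allele. The lines form 1 group, with 1 Illumina bead array each, so a difference between lines holds line, culture and array together and has no test; the mouse cells with which the study compared them are not analysed here.

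Growing axons are steered by 4 main ligand and receptor systems. Ephrins are anchored in the membrane of one cell and bind Eph receptor tyrosine kinases on its neighbour, the ephrin-A class through a lipid anchor and the ephrin-B class through a membrane-spanning protein. Semaphorins, some secreted and some bound to the membrane, bind plexins, and most secreted ones need a neuropilin as co-receptor. Slits bind robo receptors and repel, whereas netrins attract through DCC and repel through UNC5 receptors. The same systems act outside the nervous system, in vessel growth, tissue boundaries and epithelial cell contacts.

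Triplets of intensities list H9 first, then BG03, then ES01, in array units after quantile normalization. Each log2 SD is that of the log2 intensities of the lines (n = 3). The arrays read 2089034 to 2102778 beads each, and a typical bead type was read 41 to 43 times (file medians). A gene was called above background in a line when any of its probes exceeded the 95th percentile of 215 olfactory receptor probes on that array, which was 11.2, 12.6 and 13.3 units. In bulk RNA a low value from fewer expressing cells and one from less RNA per cell cannot be told apart. Different probes bind with different strength, so intensities are compared between lines for 1 gene and never between genes. Sums over marker lists, given below, are set side by side between lines only. Of 9 measured pluripotency markers, 9 were above background in all lines. Of 11 neural progenitor and neuron markers, TUBB3, FABP7, NES and DCX were above background in all lines, OLIG2, PAX6 and STMN2 in 2 lines, and SOX1, NEUROG1, NEUROG2 and MAP2 in none.

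Ligands and receptors of axon guidance were above background at nearly equal shares, and both less often than genes at large. Of the 36 ligands, 16 (44.4%) were above background in all 3 lines, and of the 32 receptors 14 (43.75%), against 59.8% of all 16225 named genes. None of the lines passed the threshold for 14 ligands and 15 receptors, against 32.2% of all named genes. The ligand share exceeded the receptor share by 11.5 percentage points in H9, by 0 in BG03 and by 3.1 in ES01, so its size differed more between lines than its value over all 3, 0.69 points. With the 99th percentile of the olfactory receptor probes as threshold the order turned, with 10 ligands (27.8%) and 11 receptors (34.4%) above it, against 53.0% of all named genes. With only the probe of the highest mean counted for each gene, 13 receptors were above background in all lines. The ligand share then exceeded the receptor share by 3.82 points. Genes are not replicates, so these shares are a description of 3 arrays.

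**Figure D1:**
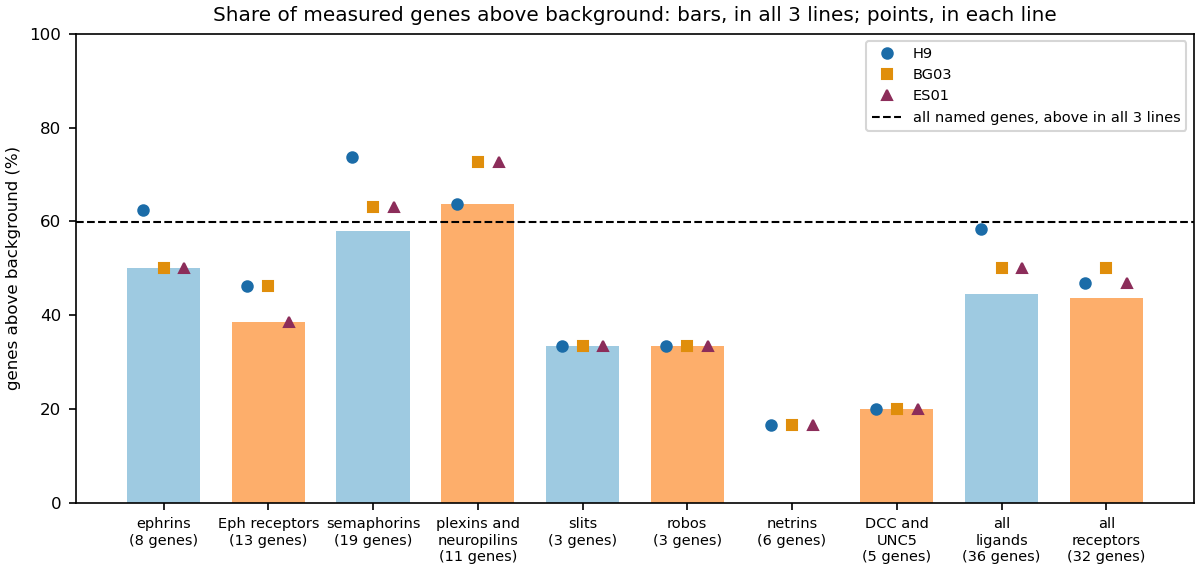
Share of measured genes above background (vertical axis, percent) for the ligands (blue bars) and receptors (orange bars) of each system; bars count genes above background in all 3 lines, points give each line alone, and the dashed line is the share over all named genes, 59.8%. The bars for semaphorins, plexins and neuropilins stand near the dashed line, while netrins have no bar because none of the 6 was above background in all lines.

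The systems differed in the share of their genes above background. Semaphorin ligands reached 11 of 19 (57.9%) in all lines and their receptors 7 of 11 (63.6%). Ephrins reached 4 of 8 and Eph receptors 5 of 13. For slits and robos 1 of 3 was above background on each side, and for the netrin system 0 of 6 ligands and 1 of 5 receptors. Without the netrin system the shares were 53.3% for ligands and 48.1% for receptors.

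A sequence feature that played no part in choosing the genes was the CpG content of their promoters. CpG observed over expected relates the number of CG dinucleotides to the number that the C and G content alone would give, and promoters inside CpG islands have high values. RefSeq promoter sequences (250 bases before to 50 bases after the start, GRCh38.p14) were matched by gene ID for 59 of the 70 guidance genes and 13132 named genes. For each gene 1 start was taken, and whether these cells use it was not tested. Over all named genes the median was 0.85 for genes above background in all lines and 0.42 for genes above it in none. Among guidance genes, counted here with UNC50 (1.07) and UNC5CL (0.12), the medians were 0.76 (26 genes) and 0.68 (24 genes). A value of at least 0.6 was reached by 19 of the 24 guidance genes above background in no line (79.2%), against 40.1% of all named genes above it in none. It was reached by 17 of the 26 above background in all lines (65.4%), against 84.1% of all named genes. Guidance genes not above background in these cells thus mostly had CpG-rich promoters at this start, and 9 of the 26 above it in all lines did not. Among ligands 0.6 was reached by 9 of 10 above background in no line and 7 of 13 above it in all lines. Among receptors the shares were alike, 10 of 13 and 9 of 12.

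The promoters at both ends of this range are shown for each class, with every CG dinucleotide in capitals; the 4 were picked from these values. EPHB6, an Eph receptor without kinase activity, has the lowest CpG value among ligands and receptors above background in all lines (0.17, 3 CG dinucleotides, chr7:142862506-142862805, + strand). EFNB2, the ephrin-B2 ligand, has the highest among them (1.06, 49 CG, chr13:106535613-106535912, - strand). ROBO2, a slit receptor, has the lowest among those above background in no line (0.44, 7 CG, chr3:76310630-76310929, + strand), and EFNA5, the ephrin-A5 ligand, the highest (1.05, 47 CG, chr5:107670888-107671187, - strand). EFNB2 was above background in every line and EFNA5 in none, although their promoters hold nearly the same number of CG dinucleotides.
EPHB6: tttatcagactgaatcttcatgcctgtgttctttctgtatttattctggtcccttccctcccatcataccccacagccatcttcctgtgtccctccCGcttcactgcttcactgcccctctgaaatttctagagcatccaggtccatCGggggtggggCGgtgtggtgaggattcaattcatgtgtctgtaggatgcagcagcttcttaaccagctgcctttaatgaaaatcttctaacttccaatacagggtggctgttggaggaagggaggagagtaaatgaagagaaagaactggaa
EFNB2: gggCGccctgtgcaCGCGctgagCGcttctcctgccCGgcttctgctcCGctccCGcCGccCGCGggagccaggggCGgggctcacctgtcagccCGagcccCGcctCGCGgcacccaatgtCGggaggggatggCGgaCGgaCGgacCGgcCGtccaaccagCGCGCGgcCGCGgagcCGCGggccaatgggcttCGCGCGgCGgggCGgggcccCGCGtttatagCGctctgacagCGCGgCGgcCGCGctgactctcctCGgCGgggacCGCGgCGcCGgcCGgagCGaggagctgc
ROBO2: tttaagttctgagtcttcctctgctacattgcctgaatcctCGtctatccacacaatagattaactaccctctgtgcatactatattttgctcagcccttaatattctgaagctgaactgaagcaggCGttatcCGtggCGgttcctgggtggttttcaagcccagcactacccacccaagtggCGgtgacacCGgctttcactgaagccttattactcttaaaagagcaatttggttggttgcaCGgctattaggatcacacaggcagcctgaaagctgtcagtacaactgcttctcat
EFNA5: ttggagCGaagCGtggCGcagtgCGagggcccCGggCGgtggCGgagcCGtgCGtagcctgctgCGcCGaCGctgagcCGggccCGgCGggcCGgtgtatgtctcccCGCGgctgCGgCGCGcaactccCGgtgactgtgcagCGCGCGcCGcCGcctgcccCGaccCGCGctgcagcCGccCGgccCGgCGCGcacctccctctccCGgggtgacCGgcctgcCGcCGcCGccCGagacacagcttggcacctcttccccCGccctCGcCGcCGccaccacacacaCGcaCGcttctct

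**Figure D2:**
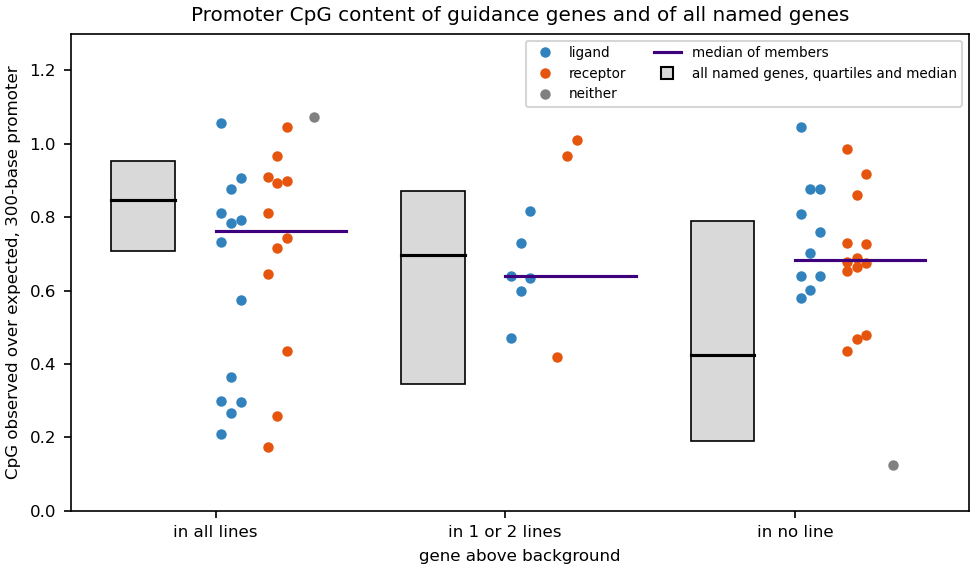
CpG observed over expected of the 300-base promoter (vertical axis, no unit) for guidance genes (points; blue ligands, orange receptors, grey neither) by the number of lines in which the gene was above background; grey boxes give the quartiles and median of all named genes, and purple lines the median of the guidance genes. Over all named genes the median falls from 0.85 to 0.42 between the outer classes, and over guidance genes from 0.76 to 0.68.

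Among ephrin ligands, EFNA1, EFNA4, EFNB2 and EFNB3 were above background in every line. EFNB2, a ligand of EPHB4 in vessel formation, measured 574, 686 and 713 (log2 SD 0.17). EFNB3, a ligand that acts at the spinal cord midline, measured 244, 246.5 and 203 (log2 SD 0.16). EFNA4 measured 223, 191 and 182 at its probe for all isoforms (log2 SD 0.16), and EFNA1, the main ligand of EPHA2, 25.7, 30.2 and 30.1 (log2 SD 0.13). For all 4 the lines lay close together at the leading probe, within 1.24-fold of each other. At its isoform-specific probe EFNA4 spread wider, at 72.5, 55.9 and 40.5. EFNB1 passed the threshold in H9 alone (12.8, 5.23 and 3.13), and EFNA2, EFNA3 and EFNA5 in no line. EFNA4, EFNA3 and EFNA1 are neighbours on chromosome 1, with 1 protein-coding gene between EFNA4 and EFNA3 and 0 between EFNA3 and EFNA1; the middle gene was the one not above background.

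Among Eph receptors, EPHA1, EPHA2, EPHA4, EPHB4 and EPHB6 were above background in all lines. EPHA2, an epithelial Eph receptor, measured 328, 406 and 571 (log2 SD 0.40), highest in ES01, 1.74-fold over H9. EPHB4, the receptor of EFNB2, was nearly even at 623, 620.3 and 651 (log2 SD 0.04). EPHA1, the founding member of the family, measured 254.5, 305 and 259.7 (log2 SD 0.14). These 3 receptors stood far over the threshold in each line. EPHB6, the receptor without kinase activity whose promoter is shown above, measured 53.8, 45.6 and 49.0 (log2 SD 0.12). EPHA4, a receptor that binds ephrins of both classes, was dim at 16.4, 24.0 and 24.6 (log2 SD 0.33). EPHA8 passed the threshold in H9 and BG03 (19.4, 13.3 and 5.03). The 7 other Eph receptors, EPHA3, EPHA5, EPHA6, EPHA7, EPHA10, EPHB1 and EPHB3, were not above background in any line. EPHA3 has 3 probes and EPHA5 and EPHA6 have 2 each, and none of these probes passed.

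Secreted semaphorins were represented by 5 of 7 genes. SEMA3A, the classic growth-cone collapsing ligand, measured 383, 365 and 365 (log2 SD 0.04), with hardly any spread over the lines. SEMA3E, which binds plexin D1 without a neuropilin, measured 263, 316 and 435 (log2 SD 0.37), highest in ES01. SEMA3F, a ligand of NRP2, measured 158, 159 and 207 (log2 SD 0.22). SEMA3C, a ligand of vessel and outflow tract development, was the least even of the class, at 20.7, 19.9 and 42.8 (log2 SD 0.62), with ES01 alone high. SEMA3G measured 28.9, 22.1 and 27.0 (log2 SD 0.20). SEMA3B and SEMA3D were not above background in any line. On chromosome 7 the genes SEMA3C, SEMA3E, SEMA3A and SEMA3D follow each other, with 3, 0 and 0 protein-coding genes between them, and the first 3 were above background.

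Membrane-bound semaphorins were above background in all lines for 6 of 12 genes. SEMA4D, which signals through plexin B1 and also acts in immune cells, measured 1033, 731 and 1017 (log2 SD 0.28), lowest in BG03. SEMA4B measured 535, 516 and 538 (log2 SD 0.03) and SEMA4C, a ligand of plexin B2, 55.3, 51.3 and 55.8 (log2 SD 0.07). Both were even over the lines. SEMA4A, a ligand in retina and immune cells, was highest in H9 and lowest in ES01, at 232, 177 and 108 (log2 SD 0.56). SEMA4F, a semaphorin of synapses, measured 41.7, 16.9 and 30.1 (log2 SD 0.66), with BG03 low. SEMA6A, a ligand of plexin A2 and A4, measured 20.8, 25.8 and 32.3 (log2 SD 0.32). SEMA6C passed the threshold in H9 and ES01 (15.4, 6.37 and 20.6), and SEMA5A in H9 alone (12.2, 2.57 and 6.57). SEMA6D passed it in H9 at an isoform-specific probe (15.5, 4.93 and 5.83) and in BG03 at the probe for all isoforms (5.23, 13.7 and 4.93). SEMA4G, SEMA6B and SEMA7A passed in no line.

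Of the plexins, PLXNA1, PLXNA2, PLXNB1, PLXNB2 and PLXND1 were above background in every line, and so were both neuropilins, NRP2 only because any probe was let count. In H9 NRP2 passed at its probe for all isoforms (17.5), while its leading probe measured 8.80 there. PLXNB2, a receptor of class 4 semaphorins, measured 236, 184 and 259 (log2 SD 0.26), and PLXNB1, the SEMA4D receptor, 57.3, 54.4 and 65.1 (log2 SD 0.13). PLXNA1, which pairs with NRP1 to receive SEMA3A, measured 155, 144 and 152 (log2 SD 0.06). PLXND1, the SEMA3E receptor, measured 34.6, 39.0 and 35.1 (log2 SD 0.10). NRP1 was dim and even at 24.4, 24.7 and 25.75 (log2 SD 0.04). PLXNA2 was uneven, at 29.4, 37.1 and 73.4 (log2 SD 0.69). PLXNA4 passed the threshold in BG03 alone (5.53, 14.0 and -1.27) and PLXNC1, the SEMA7A receptor, in ES01 alone (8.87, 10.1 and 15.5). PLXNA3 and PLXNB3 passed in no line.

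The slit system rested on 1 gene on each side. SLIT2 measured 32.4, 26.3 and 51.4 (log2 SD 0.49), highest in ES01, and its receptor ROBO1 206, 184 and 253 (log2 SD 0.23). SLIT1, SLIT3, ROBO2 and ROBO4, the robo of endothelial cells, were not above background in any line. ROBO1 and ROBO2 are direct neighbours on chromosome 3. In the netrin system UNC5D was the exception, at 67.4, 72.3 and 84.65 (log2 SD 0.17). The classic pair NTN1 and DCC was not above background in any line, nor were NTN3, NTN4, NTNG2, UNC5A, UNC5B and UNC5C. NTN5 passed the threshold in BG03 alone (7.20, 13.1 and 9.77). NTNG1, a netrin-like protein with a lipid anchor that does not bind DCC, passed it in H9 and ES01 (14.1, 10.1 and 27.1).

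Of the 2 genes that only share the letters, UNC50 measured 1414, 1424 and 1305 (log2 SD 0.07), and UNC5CL was not above background in any line. Counting both as receptors would give 15 receptors above background in all lines.

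**Figure D3:**
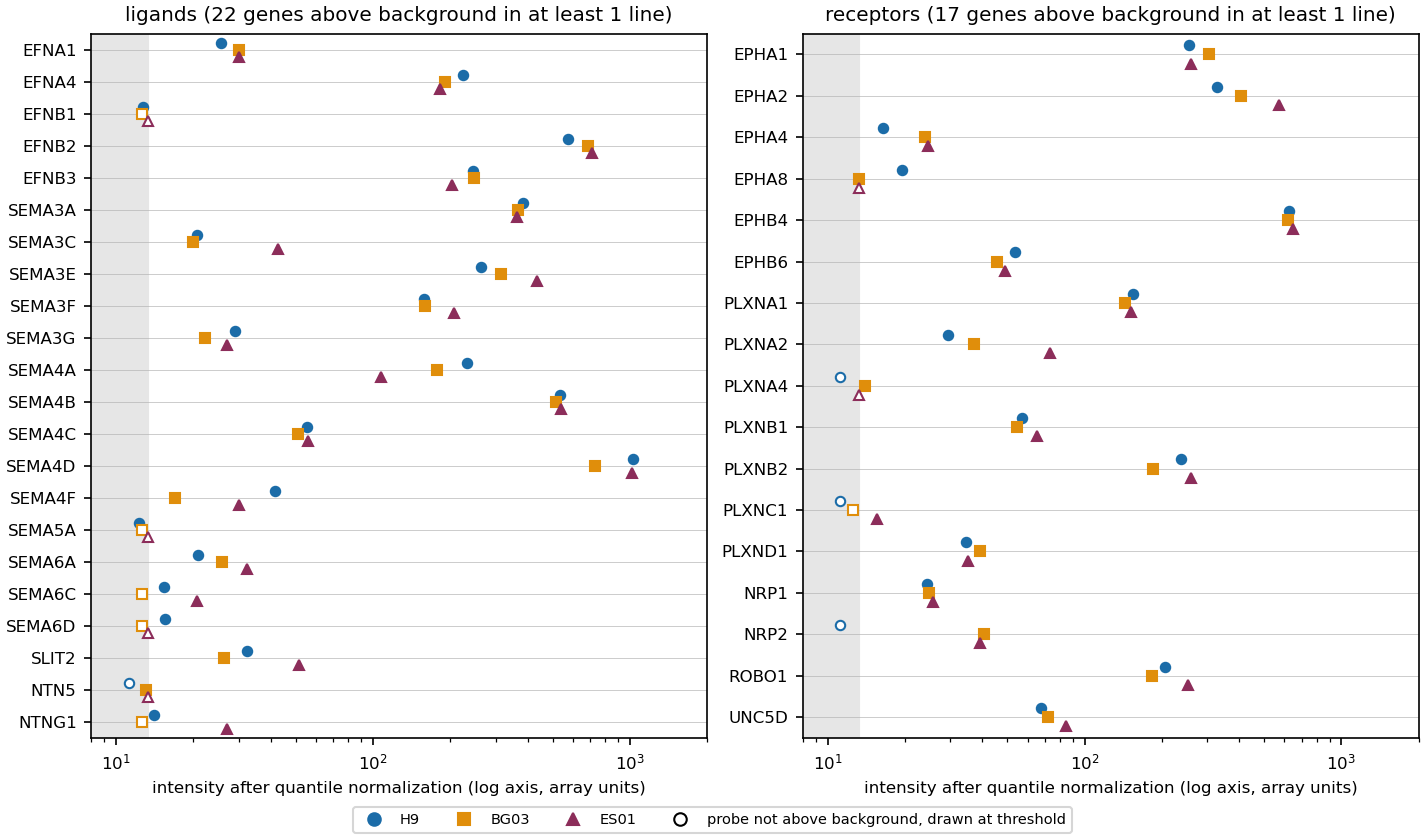
Intensity after quantile normalization (horizontal log axis, array units) in H9 (circles), BG03 (squares) and ES01 (triangles) for the 22 ligands and 17 receptors above background in at least 1 line, at the probe with the highest mean; open symbols are values not above background, drawn at the array's threshold, and the grey band ends at the highest threshold. Most genes spread over less than 2-fold, and SEMA3C, SEMA4A, SEMA4F, PLXNA2, NTNG1 and NRP2 over at least 2-fold.

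Known ligand and receptor partners were set side by side in 26 textbook pairs, which were written down with earlier results known, so that the counts depend on that choice. Both members were above background in all lines in 17 of them. They include EFNA1 with EPHA2, EFNB2 with EPHB4, SEMA3A with NRP1 and PLXNA1, SEMA3E with PLXND1, SEMA4D with PLXNB1 and PLXNB2, SEMA6A with PLXNA2 and SLIT2 with ROBO1. The pairs of SEMA3C and SEMA3F with NRP2 are among the 17 only because any probe of NRP2 was let count. In 7 pairs neither member was above background in all lines, among them NTN1 with DCC, UNC5B and UNC5C, EFNA5 with EPHA7 and SEMA7A with PLXNC1. SLIT2 with ROBO2 (ligand alone) and SEMA6D with PLXNA1 (receptor alone) were split. The 26 are not complete: SEMA6A with PLXNA4 and NTN1 with UNC5D, which they leave out, would be split too. Of the ligands above background in no line, the 26 hold only EFNA5, SEMA7A and NTN1. Of those above it in all lines, they leave out only SEMA3G, SEMA4B and SEMA4F. The 17 of 26 is thus no share of all possible partners. The pairs share members, so the counts are not independent, and RNA from a mixed population does not show which cell carries which partner.

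Of the 9 ligands and receptors above background in 1 or 2 lines, 5 were hardly over the threshold. The highest excess was 0.48 units for NTN5, 1.03 for SEMA5A, 1.38 for PLXNA4, 1.56 for EFNB1 and 2.24 for PLXNC1. The median standard error over the beads of a dim bead type was 1.74 to 2.65 units, in files whose bead codes are not linked to genes here. At their highest, EPHA8 (8.19), SEMA6C (7.31), NTNG1 (13.9) and SEMA6D (4.29) exceeded the threshold by more. In BG03, however, EPHA8 (13.3) and SEMA6D (13.7) were also close to the threshold of 12.6. For NTN5, SEMA5A, PLXNA4, EFNB1 and PLXNC1 the call thus rests on an excess smaller in number than the largest of these errors. The errors hold bead noise alone and were not measured on these genes' own beads. They are in raw bead units and the excess is in normalized units, so the scales may differ. Among all 16225 named genes 1307 were above background in 1 or 2 lines, beside 9 of the 68 ligands and receptors. The threshold is a percentile of the olfactory receptor probes, so some of those background probes pass it on each array by definition. How many of the 9 passed in this way, without expression, was not tested.

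Where genes had several probes, the probes often gave different calls. Of 11 such guidance genes, 2 (EFNA1 and EFNA4) had every probe above background in all lines, 4 had 1 probe above it in all lines and another not, and 5 had no probe above it in all lines. Illumina's probe names mark probes for all isoforms of a gene and probes specific for an isoform. ROBO1 measured 206, 184 and 253 at its probe for all isoforms, while its isoform-specific probes measured 2.10, 8 and 12.5, and 8.70, 13.4 and 5.83. SEMA4B likewise measured 535, 516 and 538 at the probe for all isoforms and 5.23, 4.83 and 6.90 at the specific one. At NRP2 the probe for all isoforms measured 17.5, 30.0 and 17.4, and the one specific for NM_201264 measured 8.80, 40.6 and 39.2; its 2 other probes did not pass in any line. ES01 was as low as H9 at the first of these NRP2 probes and as high as BG03 at the other. EFNA4 was lower in ES01 than in H9 at both probes, 223 against 182 at the one and 72.5 against 40.5 at the other. Whether each probe reads its transcript was not checked, so a gene not above background is not shown to be absent.

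**Figure D4:**
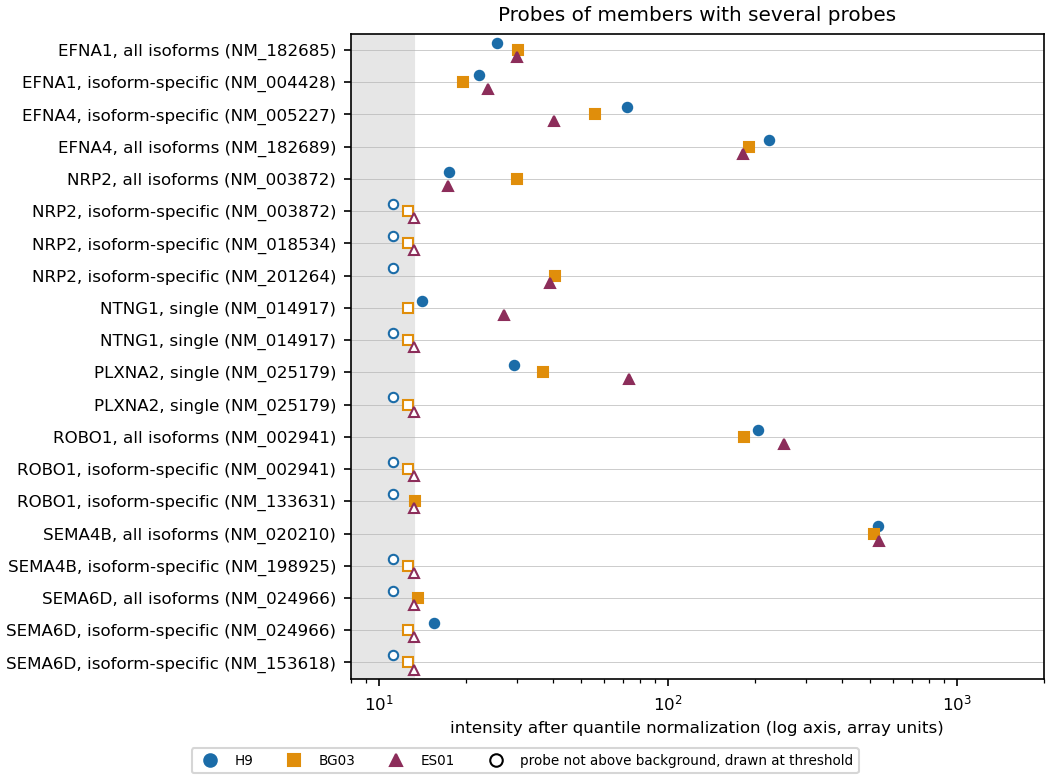
Intensity (horizontal log axis, array units) at each probe of the 8 guidance genes that have several probes and pass the threshold at any of them, with the RefSeq transcript of the annotation; symbols as for the lines H9 (circles), BG03 (squares) and ES01 (triangles), open where not above background and then drawn at the threshold. At ROBO1, SEMA4B and PLXNA2, 1 probe stands over background in all lines while the others are not above it in all lines.

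Between lines, measures of spread gave guidance genes values on both sides of those of all genes. UNC50 is counted here among the guidance genes. Over the 30 guidance genes whose leading probe was above background in all lines, the median SD was 0.17 on the log2 scale, against 0.18 over 9695 genes. It was 0.21 for 16 ligands and 0.14 for 13 receptors. The median absolute log2 difference of the 30 was 0.23 between BG03 and H9 (0.19 over all genes), 0.25 between ES01 and H9 (0.23) and 0.25 between ES01 and BG03 (0.21). In the same order it was 0.25, 0.30 and 0.31 for the 16 ligands, and 0.17, 0.14 and 0.23 for the 13 receptors. Of the 40 guidance genes above background in any line, 2 differed at least 2-fold between BG03 and H9 (3.24% of all genes did), 4 between ES01 and H9 (5.14% of all genes) and 2 between ES01 and BG03 (3.75% of all genes). Between any pair of lines 6 of the 40 did (15%), against 8.29% of all genes. Of 22 ligands 4 did (18.2%), and of 17 receptors 2 (11.8%). These shares are not matched for intensity. With a floor of 50 units 1 guidance gene, SEMA4A, differed at least 2-fold between ES01 and H9, and 0 in each other pair. These counts are small and were not tested. For the 30, ES01 was higher than H9 in 20, with a median log2 difference of 0.07 (-2.45e-05 over all genes), and higher than BG03 in 22, with a median of 0.11 (-0.02 over all genes); both comparisons use the same ES01 array.

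The 6 genes that differed were SEMA3C, SEMA4A, SEMA4F, NTNG1, PLXNA2 and NRP2, with the values given above. SEMA3C was 2.07-fold higher in ES01 than in H9 and 2.15-fold higher than in BG03, while H9 and BG03 were alike. PLXNA2 was 2.50-fold higher in ES01 than in H9 at its leading probe; its second probe passed in no line and gives no check. SEMA4A ran the other way, 2.15-fold lower in ES01 than in H9. SEMA4F was 2.47-fold lower in BG03 than in H9. NTNG1 was at least 2.16-fold higher in ES01 than in BG03, where it was not above background; its second probe passed in no line. NRP2 at the probe for NM_201264 was at least 3.62-fold higher in BG03 and at least 3.50-fold higher in ES01 than in H9, a difference that the probe for all isoforms gave for BG03 in part (17.5 against 30.0) and for ES01 not at all (17.5 against 17.4). Fibroblast markers also differed between these arrays. The summed intensity over all 10 listed, with those not above background, was 1214, 1272 and 1592, of which THY1 alone gave 752, 851 and 824. Such a sum, here and for the endothelial markers below, follows its brightest probes and is no measure of cell number. Of the 10, 5 were above background in all lines, and COL3A1 and POSTN were not above background in any line. Of those 5, COL1A1 (18.6, 22.0 and 43.2), COL1A2 (310.3, 229 and 582) and PDGFRB were highest in ES01, and THY1 and S100A4 in BG03. Of those above background in fewer lines, LUM was highest in BG03 (10.1, 48.9 and 10.1), and DCN (30.5, -0.60 and 26.4) and FAP in H9. Of 8 endothelial markers 5 were above background in all lines, with a summed intensity over the list of 517, 453 and 530.1, and CDH5 and TIE1 were in none. TEK was highest in ES01 (29.4, 48.15 and 162), while VWF (58.3, 24.3 and 27.5), KDR, CLDN5 and EGFL7 were highest in H9, and PECAM1 in BG03. The part of such cells, or of feeder RNA, in the higher SEMA3C, SLIT2 and PLXNA2 values of ES01 was not tested.

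**Figure D5:**
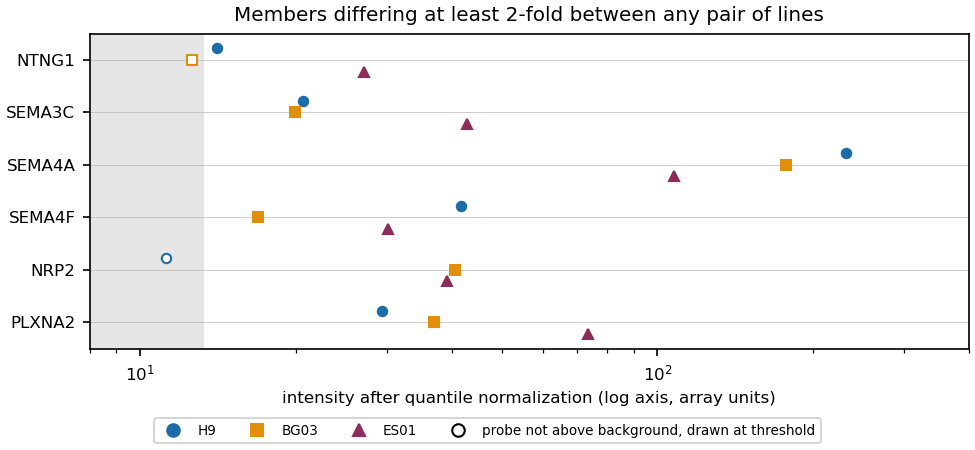
Intensity (horizontal log axis, array units) of the 6 guidance genes that differ at least 2-fold between any pair of lines, at the probe with the highest mean; circles H9, squares BG03, triangles ES01, open where not above background and drawn at the threshold. ES01 stands highest for SEMA3C, PLXNA2 and NTNG1 and lowest for SEMA4A.

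The listed other genes of the pathway were more often above background than its ligands and receptors. Both lists were chosen with earlier results of these data known, so their shares depend on that choice. Of 39 measured genes for other guidance molecules and co-receptors, 26 (66.7%) were above background in all lines, and of 53 signal mediators 45 (84.9%), beside 59.8% of all named genes. RGMA, a repulsive guidance molecule, measured 1279, 1191 and 1183 (log2 SD 0.06) and its receptor NEO1, a relative of DCC that also binds netrins, 196, 207 and 256 (log2 SD 0.20). DRAXIN, a secreted netrin antagonist, was dim at 23.0, 28.6 and 31.5 (log2 SD 0.23). FLRT2 measured 149, 125 and 183 (log2 SD 0.28) and FLRT3 254, 274 and 287 (log2 SD 0.09); both are membrane proteins that bind UNC5 receptors, of which UNC5D was the one above background. In this list SDC2, a heparan sulfate proteoglycan (80.8, 41.7 and 118.55), and CNTN1, a neuronal adhesion molecule (97.3, 98.3 and 47.9), differed at least 2-fold. Among mediators, the collapsin response proteins DPYSL2 (2340.5, 2363 and 2415), DPYSL3 (9284, 7727 and 7059.7) and DPYSL4 (259, 196 and 301), which carry semaphorin signals to microtubules, were above background in all lines, as were CRMP1 (1486, 1178 and 1338) and DPYSL5. DPYSL5 (11.5, 24.5 and 20.9), SRGAP3, a slit-robo GTPase activating protein (33.1, 24.0 and 15.0), and ROCK1, a kinase under RhoA (32.9, 36.2 and 16.1), differed at least 2-fold between any pair of lines. Their lowest values were close to the threshold, which was 11.2 units in H9 for DPYSL5 and 13.3 in ES01 for SRGAP3 and ROCK1. At least 2-fold differences were thus found for 2 of the 31 other guidance molecules (6.45%) and 3 of the 46 mediators (6.52%) above background in any line. The share over all genes was 8.29%. These counts are small and were not tested.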

How the data were processed

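Total RNA of 3 human ES cell lines was labelled with Cy3 and measured on 1 Illumina array per line, per the labels. The deposited intensities are linear and background had been subtracted before, since 26.3% to 33.8% of values are below 0; the authors' software and scaling are unknown here. The deposited bead files hold raw green intensities per bead and served for bead counts and standard errors alone, with beads further than 3 median absolute deviations from the type's median dropped. Of 47293 probes, 18468 have 1 gene symbol in the platform annotation, 0 have several and 28825 are unnamed here; 18451 were found by gene ID in the RefSeq table (GRCh38.p14). All probes but 4 controls were quantile-normalized. A gene's value is that of its probe with the highest mean; it is above background where any probe is. Values under the threshold were set to it before log2, and a fold against them is a lower bound. Neighbours are guidance genes with at most 4 protein-coding genes between them. Line differences were taken over genes that passed in any line.

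The members, lists and textbook pairs were chosen with earlier results of these data known. Every guidance gene is named, with values where it was above background; other guidance molecules and mediators follow a rule (the first 5 of a list above background in all lines, and those at least 2-fold apart); cell type markers follow no such rule and were named with their values seen. UNC50 and UNC5CL were set apart, and any probe was let count, after values were seen. The calculation was tested on simulated data in which only genes well over the threshold were changed. It gives no check of 2-fold differences in dim genes. Python 3.11.15 with numpy 2.4.6, pandas 2.3.3 and matplotlib 3.10.9 was used. Alternatives covered normalization, threshold, background set, probe rule, floor, filter, fold and each line left out.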

Additional observations from a re-analysis of the deposited data

How the results depend on the processing

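Counts of ligands and receptors above background depended on the threshold more than on the scaling. With values as deposited, with arrays scaled to the same median of probes above background, and with KRTAP and TAS2R probes as background, the same 30 ligands and receptors were above it in all lines. With the 99th percentile (25.2, 30.8 and 21.4 units) 21 of them remained; EFNA1, EPHA4, NRP1, NRP2, SEMA3C, SEMA3G, SEMA4F, SEMA6A and SLIT2 were lost, 10 ligands remained, and the ligand minus receptor share was -6.60 points. With the probe of the lowest mean this gap was 7.29 points, against 0.69 with the probe of the highest mean, and leaving out each line gave 0.35 to 6.25 points. The share gap was 5.19 points without the netrin system, an alternative added after seeing the data, as were counting the highest probe alone and counting UNC50 and UNC5CL as receptors. With the highest probe alone NRP2 was lost, 13 receptors remained above background in all lines, and the gap was 3.82 points.

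Counts of 2-fold differences are small and moved easily. With the 99th percentile they were 0 (BG03 and H9), 2 (ES01 and H9; 1 ligand and 1 receptor) and 0 (ES01 and BG03). With a floor of 50 units they were 0, 1 (a ligand, with 0 receptors) and 0. With the probe of the lowest mean they were 1, 2 and 1, with 0 receptors in each pair with H9 and 1 ligand between ES01 and BG03. With the mean of probes they were 1 between BG03 and H9 (0 receptors) and 1 between ES01 and BG03 (a ligand), and 1 receptor differed between ES01 and H9. With genes above background in all lines alone, 1 differed between ES01 and BG03 (a ligand). At 1.5-fold there were 9 between ES01 and H9 (6 ligands) and 7 between ES01 and BG03 (6 ligands and 1 receptor). Between ES01 and BG03 the same-median scaling gave 4, and both it and the deposited values gave 1 receptor. The difference of NTNG1 between ES01 and BG03 was -0.18 with the 99th percentile, where BG03 is set to its threshold of 30.8 units, above the 27.1 units of ES01.

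The median promoter CpG value of guidance genes above background in all lines was 0.78 with the 99th percentile, 0.74 with the mean of probes (0.743) or the highest probe alone (0.743) and 0.737 with the lowest probe; leaving out each line gave 0.737 to 0.763. In genes above it in none it was 0.688 with the KRTAP and TAS2R background, 0.679 with the mean of probes and 0.696 with the lowest probe; leaving out each line gave 0.679 to 0.683. Dim members, within a few units of the threshold, are limited by signal over background.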
